A study of Canis lupus familiaris with 5 samples.

Results

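The 8 genes ZSCAN4, KLF17, ZNF296, DUXA, LEUTX, KDM4E, CCNA1 and SLC34A2 are known in human cells as targets of DUX4, and most of them are active in the cleavage-stage embryo. They were picked by gene symbol, the dog symbol where the peak lists give one and otherwise that of the human homolog, out of 10804 gene names in the lists. Binding near them was measured by ChIP-seq, the sequencing of DNA recovered with a crosslinked protein, in immortalized canine myoblasts, which are muscle precursor cells in culture. Every peak named for 1 of the 8 genes was kept, which gave 29 peaks for human DUX4, 6 for canine DUXC and 0 for the canine isoform DUXC-ALT. RNA was not measured in these files, so the peaks describe binding and not expression, and the labelled cell type could not be checked against its marker genes.

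DUX4 is a double homeobox transcription factor that is briefly expressed in the cleavage-stage human embryo and switches on a set of early embryonic genes. When it is expressed in skeletal muscle it causes facioscapulohumeral dystrophy, and the same embryonic genes are then induced in muscle cells. DUXC is a related double homeobox gene that dogs carry.

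The study had 5 groups of 1 library each. A monoclonal line expressed human DUX4, a monoclonal line expressed DUXC and a polyclonal line expressed DUXC-ALT, all labelled as doxycycline inducible (1 µg/ml for 24 hours where given, per the labels' protocols). A polyclonal and a monoclonal line carried luciferase and were labelled as not doxycycline inducible. For these groups the words polyclonal and monoclonal stand in the antibody field of the labels. No peak list of the luciferase groups was used here. Per the labels, the canine factors had the C-terminal domain of human DUX4 in place of their own, the part that the antisera recognise. Clonality differs between the groups and cannot be told apart from the factor where DUXC-ALT is set beside the others.

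The lists held 85825 DUX4, 6031 DUXC and 561 DUXC-ALT peaks on the dog build canFam3. Fold enrichment, the authors' ratio of the signal at the summit to the local background, had a median of 7.37 for DUX4, with quartiles of 5.89 and 9.68. The DUXC median was 7.02, with quartiles of 5.92 and 8.46, and that of DUXC-ALT 8.3. The height of a peak, its pileup, moved in steps of 0.917 in the DUX4 list and 1 in the DUXC list, and 1 step was read as 1 sequenced fragment. The 95% intervals below are exact Poisson intervals of that fragment number, with the background held fixed, and cover counting error only. With 1 library per factor there is no replicate check and no test, the number of reads per library is unknown, and a value from 1 list cannot be ranked against that of another.

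DUX4 had a peak named for each of the 8 genes, DUXC for 6 of them and DUXC-ALT for 0. A peak is named for the gene with the nearest transcription start site (TSS), at whatever distance. Among all 10804 named genes, 97.5% had a DUX4 peak, 23.8% a DUXC peak and 2.47% a DUXC-ALT peak. A gene enters that total only by having a peak in some list, so the DUX4 share is close to its ceiling. The 8 genes were chosen with earlier results of these lists known, so the 6 with DUXC are a description of these genes. KLF17 and ZNF296 were the genes with no DUXC peak.

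Within 5 kb of the TSS, DUX4 had peaks at 4 of the 8 genes (ZSCAN4, KLF17, ZNF296 and KDM4E), against 38.3% of all named genes. DUXC had a peak that close at 1 gene, ZSCAN4, against 5.48% of named genes, and DUXC-ALT at 0, against 0.463%. The count for DUX4 is near its background. Distances in the lists run from the nearer edge of a peak, and the ZSCAN4 peaks were just inside the limit, at 4947 bp for DUX4 and 4979 bp for DUXC. Measured from the summits they lay 5091 and 5071 bp away, which leaves 3 genes for DUX4 and 0 for DUXC. With the distances of the lists but a q-value under 1e-05, the DUX4 count was also 3, without KDM4E. Just outside the limit were the DUX4 peak at LEUTX (5556 bp) and the DUXC peak at SLC34A2 (5956 bp).

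**Figure D1:**
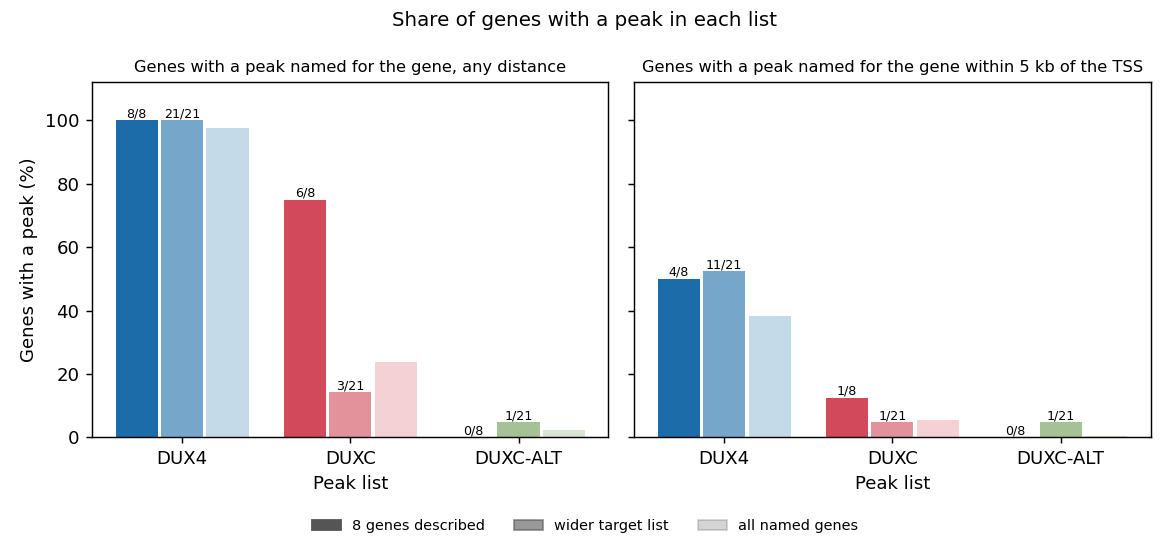
Share of genes (%) with a peak in each list, at any distance (left) and within 5 kb of the TSS (right), for the 8 genes, for 21 further DUX4 target and cleavage-stage genes and for all 10804 named genes. DUXC peaks were named for 6 of the 8 genes, 3 of the 21 and 23.8% of all named genes. The 21 and the 10804 hold only genes with a peak in some list, so the DUX4 shares at any distance are close to their ceiling.

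The distances of the peaks from the gene starts varied widely. The median distance was 15458 bp for the 29 DUX4 peaks, against 27005 bp for all DUX4 peaks with a named gene, and 10591 bp for the 6 DUXC peaks, against 20104 bp. Intergenic sequence held 23 of the 29 DUX4 peaks (79.3%; whole list 56.7%) and 5 of the 6 DUXC peaks (whole list 52.8%). Introns held 2 DUX4 peaks (whole list 33.2%) and 1 DUXC peak (whole list 32.6%). The lists' promoter class reaches to 3 kb on either side of a TSS. It held 4 DUX4 peaks (whole list 6.88%) and 0 DUXC peaks (whole list 10.8%).

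**Figure D2:**
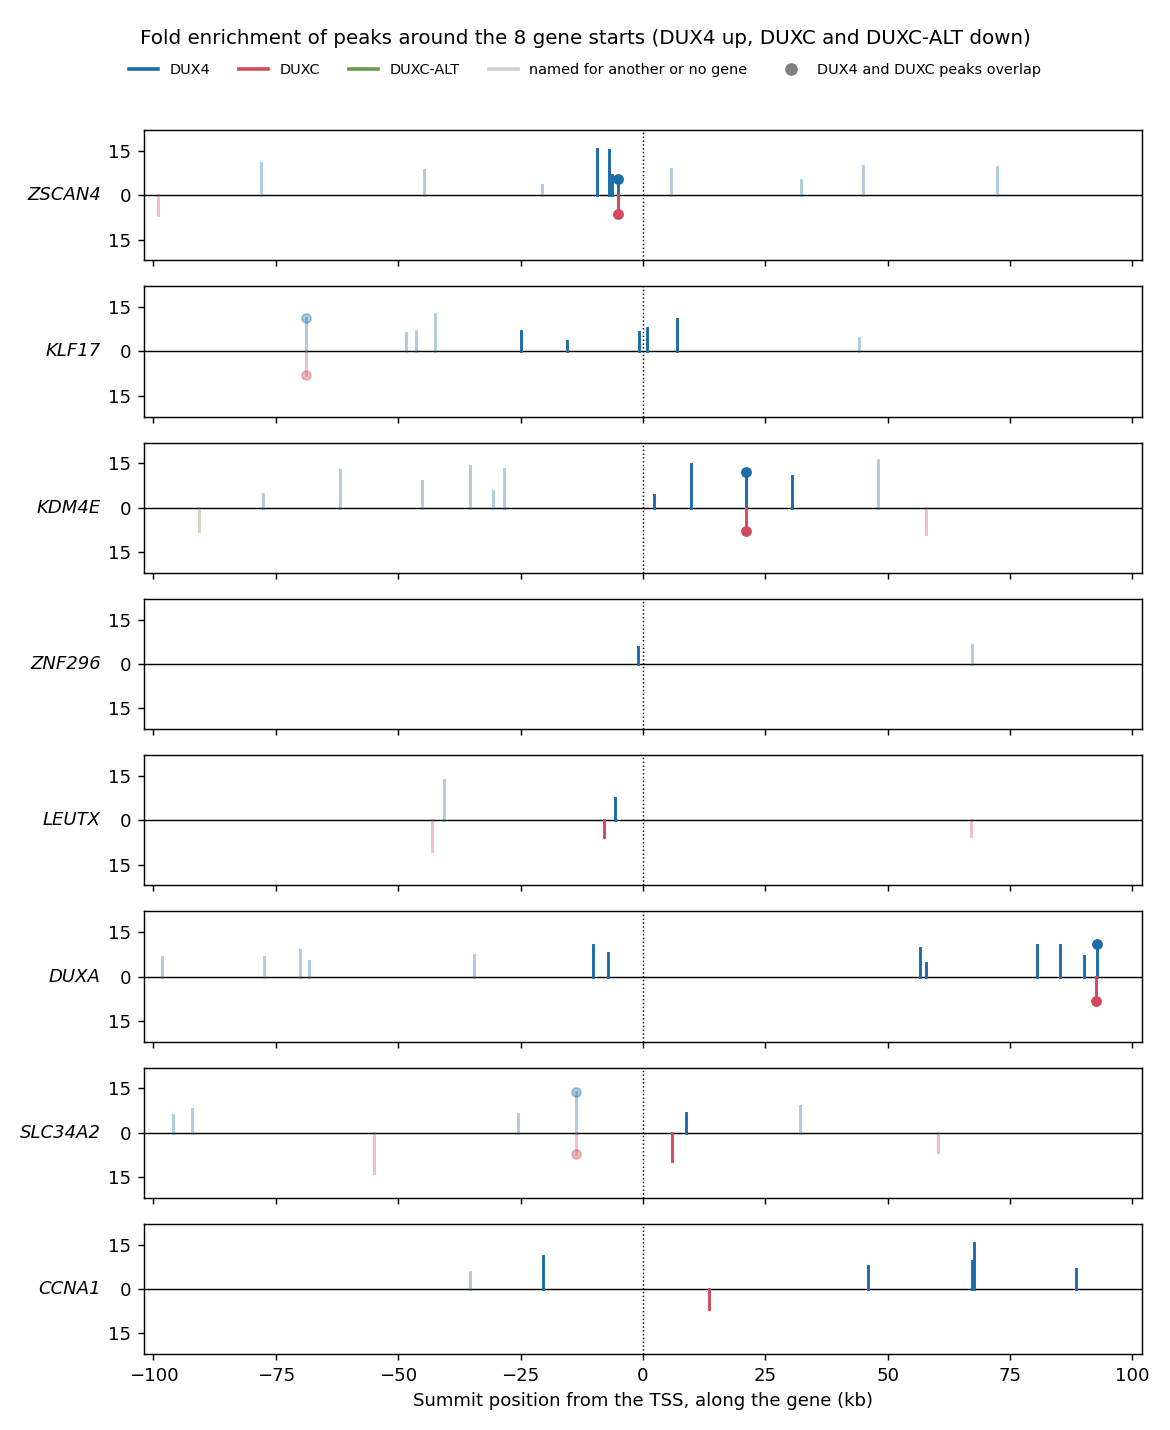
Fold enrichment of every peak within 100 kb of the 8 gene starts, with DUX4 drawn upward and DUXC and DUXC-ALT downward; the x axis is the summit position along the gene in kb, pale lines are peaks named for another or no gene, and dots mark overlapping DUX4 and DUXC peaks. ZSCAN4, KLF17 and KDM4E had 9 DUX4 summits each within 50 kb, and the lone DUXC-ALT summit lay 90.6 kb from KDM4E.

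ZSCAN4 encodes a zinc finger protein that, in mouse and human, marks early embryonic cells and acts in telomere maintenance. Its dog gene (ENSCAFG00000014217.3, chromosome 1, 100401956 to 100403555, forward strand) had 4 DUX4 peaks, all upstream and all within 4.86 kb of each other. The farthest one (100392146 to 100392713, 9243 bp upstream) had the highest fold enrichment of the 29, 15.7 (95% interval 11.5 to 21), with a pileup of 39.43 from 43 fragments. The next (100394758 to 100395167, 6789 bp upstream) had a fold enrichment of 15.4 (11 to 21) from 38 fragments. These 2 peaks stood at the 96.7 and 96.4 percentile of fold enrichment in the DUX4 list.

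The 2 peaks nearer to ZSCAN4 were lower. The peak 6222 bp upstream (100395398 to 100395734) had a fold enrichment of 6.8 (4.07 to 10.8), and the one 4947 bp upstream (100396770 to 100397009) of 5.48 (3.33 to 8.58), at the 16.6 percentile of the list. The intervals of the near pair lie below those of the far pair. DUXC had its ZSCAN4 peak at the weakest of these sites (100396707 to 100396977), with a fold enrichment of 6.25 (3.84 to 9.69) and a pileup of 18. The overlap was 208 bp and the summits were 20 bp apart, so DUXC was found at the low, near site and was not listed at the taller, farther ones.

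The summits of the other 3 ZSCAN4 peaks of DUX4 all lay in recorded stretches of L1_Canid2, a LINE-1 retrotransposon family of dogs. The stretches followed each other on the forward strand (100391881 to 100393019, 100393198 to 100395452 and 100395516 to 100395903). Whether they are parts of 1 insertion was not tested. Of all DUX4 summits, 605 (0.705%) lay in this family, with a median fold enrichment of 7.67, and the tall ZSCAN4 sites ranked 12 and 15 among them. The DUXC list had 4 summits in L1_Canid2 (0.0663%) and the DUXC-ALT list 0. Of the 171 gene names with such a DUX4 summit, 28 had at least 3, ZSCAN4 among them. The shared site lay beside a SINEC_b2 copy, a short tRNA-derived element of dogs, with the DUX4 summit 37 bp and the DUXC summit 57 bp outside it.

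Overlapping DUX4 and DUXC peaks within 5 kb of the same TSS, with no DUXC-ALT peak for the gene, were found at 307 named genes. ZSCAN4 was among the weaker of them: 93.5% of the 307 had a higher DUX4 fold enrichment and 74.9% a higher DUXC one, and the medians were 11.4 and 7.42. The 3 genes whose pair of values was closest to that of ZSCAN4, by Euclidean distance over the DUX4 and DUXC fold enrichment, were PNMAL1, TDRD3 and PSMA6. PNMAL1 had 5.36 and 6.19 (distance 0.134), TDRD3 5.72 and 6.71 (0.511), and PSMA6 5.27 and 6.77 (0.557).

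KLF17, a Krüppel-like zinc finger transcription factor of the early human embryo, carried the DUX4 peaks closest to a TSS. The dog gene (ENSCAFG00000004819.3, chromosome 15, 16147923 to 16160667, reverse strand) had 5 DUX4 peaks, and 2 of them flanked its start. The upstream one (16161345 to 16161672, 678 bp from the TSS) had a fold enrichment of 6.71 (4.48 to 9.71) from 26 fragments. The one inside the gene (16159764 to 16160078, 589 bp from the TSS) had 7.97 (5.28 to 11.6) from 25 fragments. Their intervals overlap, and both values lie within the quartiles of the list.

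The tallest KLF17 peak lay in intron 1 (16153596 to 16153921, 6746 bp downstream of the TSS), with a fold enrichment of 11.1 (7.6 to 15.6) and its summit in a SINEC_c2 copy. The peaks 15458 and 24678 bp upstream had 3.5 (2.16 to 5.42) and 6.75 (4.31 to 10.1). The former was the lowest of the 29 and stood at the 0.634 percentile of the list, beside a local background of 4, the highest of the 29. DUXC had no peak named for KLF17. Its nearest summit lay 68.9 kb upstream in a peak with no gene name (fold enrichment 8.03), where it overlapped a DUX4 peak of 11.3. The repeat recorded for both of these peaks was a (CA)n repeat.

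ZNF296, a zinc finger gene active in mouse pluripotent cells, had 1 DUX4 peak and no other. It lay 851 bp upstream of the TSS of the dog gene (ENSCAFG00000004575.3, chromosome 1, peak 110407044 to 110407272). Its fold enrichment was 5.83 (3.59 to 9.03), with a pileup of 16.5 from 18 fragments, at the 24.1 percentile of the list. The neighbourhood was sparse: the peak was the only DUX4 summit within 50 kb, and the nearest DUXC summit of any gene lay 115 kb away.

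DUXA and LEUTX are homeobox genes of the PRD class that are expressed in the early human embryo. DUXA, which like DUX4 encodes a double homeobox protein, had the most peaks of the 8 genes. The dog gene (ENSCAFG00000002431.3, chromosome 1, 100891565 to 100896291, forward strand) lies 490 kb from ZSCAN4 and had 8 DUX4 peaks. Their fold enrichment ran from 4.61 to 10.8, and 0 of them lay within 5 kb of the TSS. The nearest were 6995 bp (7.87) and 10031 bp (10.6) upstream. The other 6 lay beyond the gene's end, 4 of them in a stretch of 12.6 kb that began 80261 bp downstream of the TSS.

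DUXC shared the last of these sites. The DUX4 peak (100984065 to 100984465) had a fold enrichment of 10.8 (7.37 to 15.4) from 29 fragments, and the DUXC peak (100983999 to 100984462) had 8.27 (5.01 to 13) from 17. They overlapped by 398 bp, with summits 47 bp apart, and both summits lay in a SINEC_Cf copy. Summits in SINEC_Cf made up 0.262% of the DUX4 list and 3.61% of the DUXC list. The site is 92434 bp from the TSS of DUXA, so its name rests on the nearest-gene rule alone.

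LEUTX had 1 peak in each of the DUX4 and DUXC lists, both upstream of the dog gene (ENSCAFG00000028552.1, chromosome 1, 113688616 to 113690316, reverse strand). The DUX4 peak (113695872 to 113696164) had a fold enrichment of 7.41 (4.98 to 10.7) from 27 fragments, with its summit in ERV54-EC_LTR, a retroviral long terminal repeat (LTR). The DUXC peak (113698201 to 113698451) had 5.52 (3.12 to 9.16) from 13 fragments, the lowest of the 6 DUXC values. The peaks did not overlap: their summits were 2305 bp apart, with a gap of 2037 bp between the edges. Farther upstream, DUX4 and DUXC summits named for SELENOV lay 40.6 kb (13.6) and 43.1 kb (10.5) from the LEUTX start, and these did not overlap either.

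KDM4E belongs to the family of histone lysine demethylases. The dog gene (ENSCAFG00000004131.3, chromosome 21, 6002865 to 6004439, reverse strand) had 4 DUX4 peaks, all downstream of the TSS and beyond the gene's end. The nearest one (6002057 to 6002352) was classed as promoter, 2087 bp from the TSS, although it lay 513 bp past the end of this short gene. Its fold enrichment was 4.31 (2.45 to 7.13) from 13 fragments, at the 3.36 percentile of the list. The next one, 9649 bp from the TSS (5994445 to 5994790), had 14.8 (10.8 to 19.7) from 44 fragments, and its interval lies above that of the nearest peak.

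The site 20881 bp downstream of the KDM4E start was shared with DUXC. The DUX4 peak (5983204 to 5983558) had a fold enrichment of 12 (8.33 to 16.8) and the DUXC peak (5983181 to 5983490) of 7.87 (4.7 to 12.5). The overlap was 287 bp and the summits were 41 bp apart. A copy of SINEC_old, again a tRNA-derived element of dogs, held the DUXC summit at its last base, and the DUX4 summit lay 41 bp outside it. Summits in SINEC_old numbered 57 in the DUX4 list (0.0664%) and 5 in the DUXC list (0.0829%).

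**Figure D3:**
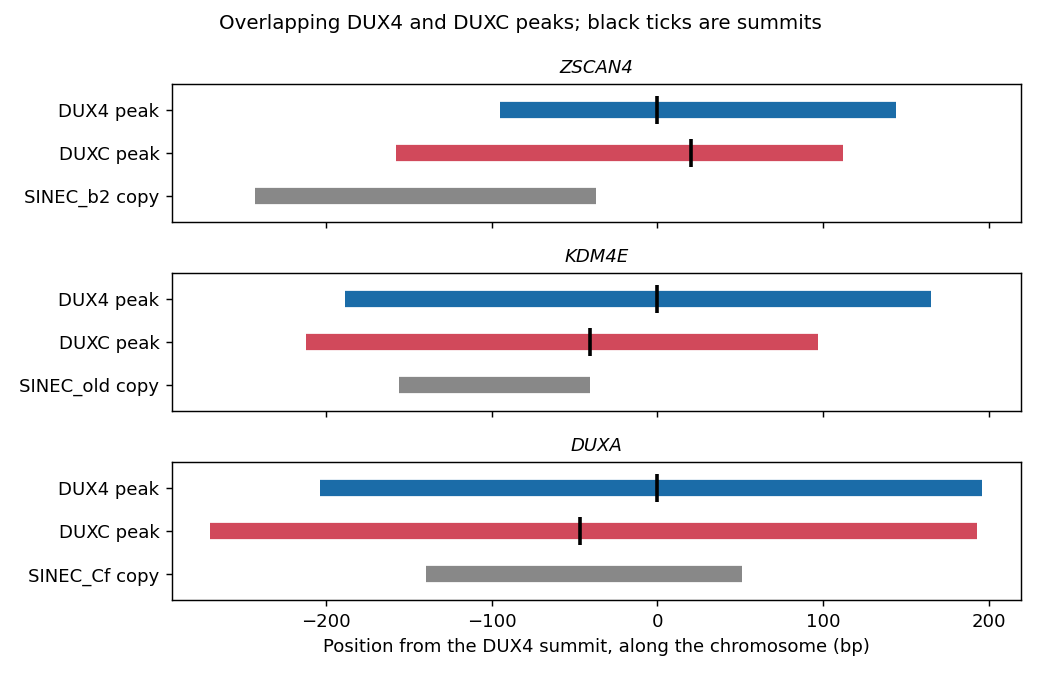
Extent of the 3 overlapping DUX4 and DUXC peak pairs named for ZSCAN4, KDM4E and DUXA, with the recorded repeat copy below; the x axis is the position in bp from the DUX4 summit along the chromosome, and black ticks are summits. Summits of a pair were 20, 41 and 47 bp apart, and each pair touched a SINE copy.

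CCNA1 encodes cyclin A1, a cell cycle regulator needed for male meiosis in mice. The dog gene (ENSCAFG00000006189.3, chromosome 25, 4189671 to 4198365, reverse strand) had 5 DUX4 peaks spread over 109 kb, none nearer than 20272 bp to the TSS. The tallest (4130435 to 4130797, 67568 bp downstream of the TSS) reached a fold enrichment of 15.4 (10.8 to 21.3) from 34 fragments, at the 96.3 percentile of the list. Its summit lay in a copy of MER21C, an LTR of an endogenous retrovirus. MER21C held 414 DUX4 summits (0.482%), among which this one ranked 18, 239 DUXC summits (3.96%) and 263 DUXC-ALT summits (46.9%). No DUXC or DUXC-ALT peak was listed at this copy. The nearest DUXC-ALT summit lay 1510 kb from the CCNA1 start.

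The DUXC peak of CCNA1 (4184716 to 4185068) lay at a site of its own, 13297 bp downstream of the TSS and 4603 bp past the gene's end. It had a fold enrichment of 6.75 (3.82 to 11.2) from 13 fragments. The nearest DUX4 summit was 32472 bp away, in a peak of 7.93.

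SLC34A2 encodes a sodium-dependent phosphate transporter of epithelial cells. In the dog gene (ENSCAFG00000016417.3, chromosome 3, 84688262 to 84723108, reverse strand), DUX4 and DUXC had 1 peak each in intron 2 of 13. The DUX4 peak (84714216 to 84714494) had a fold enrichment of 6.75 (4.31 to 10.1) from 21 fragments and the DUXC peak (84716852 to 84717152) of 9.37 (5.67 to 14.7) from 17. The latter was the highest of the 6 DUXC values, at the 83.9 percentile of its list. The summits were 2671 bp apart, so both factors had a site in the same intron without sharing it. A shared site without a gene name lay 13.6 kb upstream of the SLC34A2 start, with a fold enrichment of 13.8 for DUX4 and 7.19 for DUXC.

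Ordered by the strongest DUX4 peak, the genes ran from ZSCAN4 (15.7), CCNA1 (15.4) and KDM4E (14.8) through KLF17 (11.1) and DUXA (10.8) to LEUTX (7.41), SLC34A2 (6.75) and ZNF296 (5.83). The value is the strongest of 4 peaks at ZSCAN4 and KDM4E, of 5 at CCNA1 and KLF17 and of 8 at DUXA. LEUTX, SLC34A2 and ZNF296 had 1 DUX4 peak each, so the order cannot be told apart from the number of peaks. The intervals of all neighbours in this DUX4 order overlap. The DUXC order was SLC34A2 (9.37), DUXA (8.27), KDM4E (7.87), CCNA1 (6.75), ZSCAN4 (6.25) and LEUTX (5.52), again with overlapping intervals throughout. In all, 12 of the 29 DUX4 peaks were above the upper quartile of their list and 5 below the lower one, and the median was 7.97 against 7.37. Of the 6 DUXC peaks, 1 was above the upper and 1 below the lower quartile, with a median of 7.31 against 7.02. The DUX4 peaks within 5 kb of the 8 gene starts had values from 4.31 to 7.97, so the 12 above the upper quartile all lay farther out. At CCNA1 the nearest DUX4 peak, 20272 bp from the TSS, was 1 of these 12, with a value of 11. This describes the 8 genes only.

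**Figure D4:**
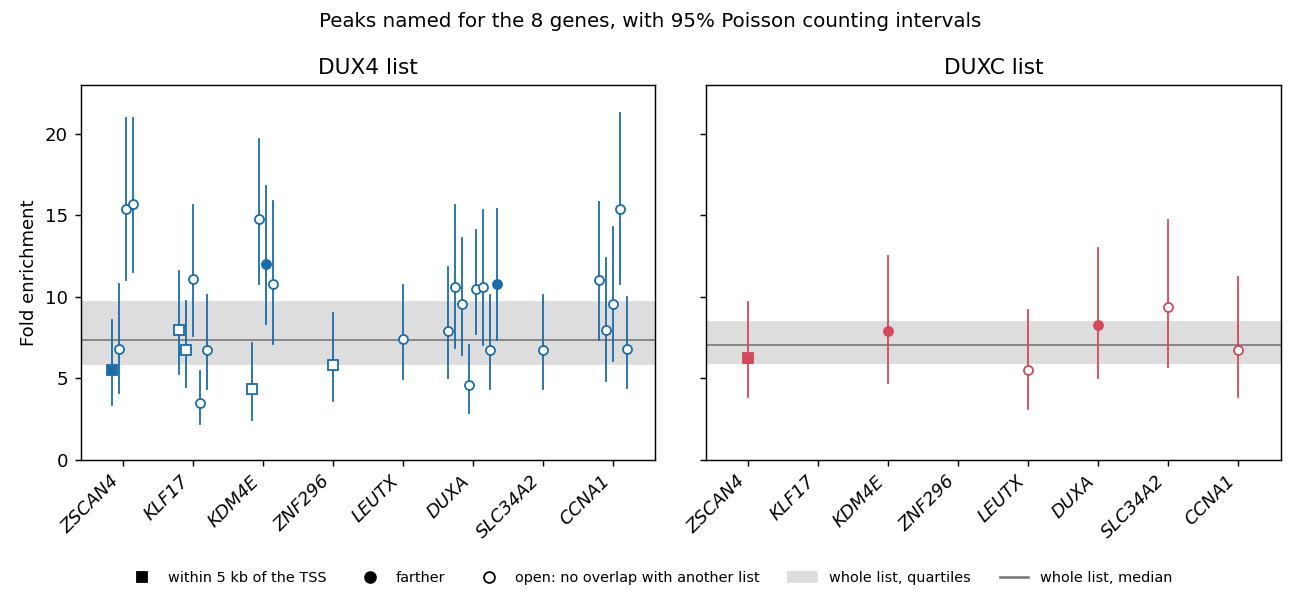
Fold enrichment of the 29 DUX4 (left) and 6 DUXC (right) peaks named for the 8 genes, ordered within a gene by distance from the TSS, with 95% Poisson intervals; squares lie within 5 kb of the TSS, filled symbols overlap a peak of another list, and the grey band and line are the quartiles and median of the whole list. The DUX4 panel runs from 3.5 at KLF17 to 15.7 at ZSCAN4 and the DUXC panel from 5.52 at LEUTX to 9.37 at SLC34A2; each panel is read against its own grey band.

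The shared sites were those at ZSCAN4, KDM4E and DUXA. Thus 3 of the 6 DUXC peaks were shared with DUX4, against 55.7% of all DUXC peaks, and 3 of the 29 DUX4 peaks with DUXC, against 3.92%. With so few peaks the former is near its background. All 3 shared sites touched a SINE copy. A recorded SINE was overlapped by 5 of the 29 DUX4 peaks (17.2%), the 3 shared ones among them, and by 14.8% of the whole DUX4 list. For DUXC it was 3 of the 6 peaks, all of them shared, and 31.0% of the whole list. The share among all overlapping peaks is not given here, so the SINE copies at the 3 shared sites are only described.

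Repeats held the summits of 19 of the 29 DUX4 peaks (65.5%; whole list 47.4%) and of 3 of the 6 DUXC peaks (whole list 47.8%). LTRs held 9 of the DUX4 summits (31.0%), against 11.6% of the whole list. These were spread over 5 genes: 4 lay at DUXA, 2 at CCNA1 and 1 each at KLF17, KDM4E and LEUTX. LINEs held 8 (27.6%; whole list 28.0%) and SINEs 2. Peaks of the same gene can share a repeat-rich stretch, so the 29 peaks are not independent sites.

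Counting summits near the 8 gene starts, whatever gene they were named for, gave 40 DUX4 summits within 50 kb, 20 of them named for other or no genes. ZSCAN4, KLF17 and KDM4E had 9 each, while the median over all named genes was 3 (quartiles 2 and 5) and 2.85% of named genes had at least 9. The limit of 9 was chosen after the values were seen. SLC34A2 had 4, DUXA and CCNA1 3, LEUTX 2 and ZNF296 1, so the 8 genes fell on both sides of the median. At least 1 DUX4 summit lay within 50 kb of all 8 genes, against 98.1% of named genes.

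DUXC had 7 summits within 50 kb of the 8 starts, at 5 genes, against 29.9% of named genes. Within 100 kb it reached 7 of the 8 genes, all but ZNF296, against 47.0% of named genes. At 5 genes (ZSCAN4, KLF17, KDM4E, DUXA and SLC34A2) a DUXC peak within 100 kb overlapped a DUX4 peak, against 30.6% of named genes. DUXC-ALT had 0 summits within 50 kb of the 8 starts, where 3.13% of named genes had one. Within 100 kb it had 1, in a MER21C copy 90.6 kb upstream of KDM4E (7.9), against 5.78% of named genes. With 561 peaks in the DUXC-ALT list, 0 of 8 does not set these genes apart.

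A wider list of 55 further DUX4 target and cleavage-stage genes was counted in the same way, of which 21 were named in the lists. Only 25 of the 55 symbols were found among RefSeq gene names, so an absent symbol does not show a gene without a peak. A gene enters the 21 only by having a peak in some list. DUX4 had a peak within 5 kb of 11 of the 21: ZNF217, GTF2F1, SRSF2, DPPA2, SLC2A3, WEE1, KDM5B, PNMA6A, MBD3L1, FBXO33 and EIF1AX. The share over all named genes was 38.3%, so this count, like that of the 8 genes, is near its background. The value at ZNF217, a zinc finger gene, was the highest among the peaks nearest to these starts (14.1, across a TSS), and that at PNMA6A the lowest (4.07). DPPA2, a gene of pluripotent and early embryonic cells, had 6.8 at 2689 bp upstream.

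DUXC had peaks named for 3 of the 21, against 23.8% of all named genes. All of these peaks overlapped DUX4 peaks, as did 55.7% of the whole DUXC list. ZNF217 (chromosome 24) had 3 DUXC peaks of 8.48 to 11, 2 of them within 5 kb of a TSS, beside overlapping DUX4 peaks of 10.8 to 15.8. FBXO33, an F-box gene, had a DUXC peak of 6.36, 37710 bp upstream. DPPA4, the partner gene of DPPA2, had one of 6.32, 71826 bp downstream, over a DUX4 peak of 19.8. DUXC-ALT had a peak named for 1 of the 21, against 2.47% of all named genes at any distance and 0.463% within 5 kb. It lay 154 bp upstream of GTF2F1, a general transcription factor gene (13.6), at a site where DUX4 had 5.83.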

How the data were processed

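ChIP-seq peak lists of 3 libraries were used, 1 per factor. Per the submitters' processing notes, the build was canFam3 and the tools MACS2 2.1.0, BWA 0.7.10 and CASAVA, whose roles are not stated. The control library, the calling threshold and the filters are not given in the sources used here. Per the file headers, the deposited lists give each peak's signal (pileup), fold enrichment ratio, −log10 p-value and −log10 q-value. These are the authors' values and describe peaks within 1 list. Local background was computed as (pileup + 1) / fold enrichment − 1. Fragments were the pileup divided by its step; in both lists 100% of the values up to 40 steps were whole within 0.05.

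Peaks overlapped when they shared at least 1 bp. Distances are those of the lists; window counts used summits. The overlap code was tested on simulated data. Python 3.11.15, numpy 2.4.6, pandas 2.3.3, scipy 1.17.1 and matplotlib 3.10.9 were used. The 8 genes, the wider list and the settings were chosen with earlier results of these data known. Named genes were the 8, genes of the wider list with a DUXC peak or a DUX4 peak within 5 kb, and the 3 most like ZSCAN4. SELENOV was named after its values were seen. No sequence is printed, since none was given for canFam3.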

Additional observations from a re-analysis of the deposited data

How the results depend on the processing

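Of 65 counts under other settings, 47 stayed within 1.5 times the reported count and 18 moved, and none has a sign to reverse. The 47 include DUXC-ALT counts of 0 that the settings could not change, so they overstate how stable the counts were. Stricter or narrower settings keep fewer peaks by construction, and wider ones more. At a fold enrichment of at least 10, the genes with a peak were 5 for DUX4 and 0 for DUXC, the peaks 12 and 0, and the genes with a peak within 5 kb 0 and 0. Within 1 kb the genes with a peak were 2 for DUX4 and 0 for DUXC, and within 50 kb 8 and 5. Measured from the summit, a choice made after seeing the data, DUXC had 0 genes within 5 kb. Of the wider list, DUX4 had 2 genes within 1 kb and 21 within 50 kb, and DUXC 2 within 50 kb. All 6 DUXC peaks at least touched a recorded repeat. Within 100 kb of the 8 starts there were 61 DUX4, 14 DUXC and 1 DUXC-ALT summits. The 3 overlapping pairs remained at q under 1e-05, with summits required within 100 bp and with an overlap of 50% of each peak. With the dog symbol alone, ZSCAN4 and KDM4E have no name, which left 6 genes for DUX4 and 4 for DUXC. No paired analysis was possible because each group has 1 library. Replicates could not be left out for the same reason. Depth limits the low peaks most: 13 fragments carry an interval of 6.92 to 22.2.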

Other observations

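Around KDM4E, DUX4 peaks named for the neighbouring genes CWC15 and ENDOD1 varied in height. The 5 summits within 100 kb that were named for CWC15, a splicing factor gene, lay 28.4, 30.6, 35.4, 45.2 and 61.9 kb upstream of the KDM4E start. Their fold enrichment was 13.2, 5.53, 14, 9.12 and 12.6 in that order, of which 5.53 is below the lower quartile of the list. A summit 48.1 kb downstream, named for ENDOD1, had 16, above all peaks named for KDM4E itself. These neighbours were picked after their values were seen.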
